A study of Homo sapiens with 12 samples.

Results

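The 52 genes described here are the matrix metalloproteinases (MMP), the ADAMTS proteinases, the ADAMTS-like proteins (ADAMTSL) and the tissue inhibitors of metalloproteinases (TIMP). They were taken by symbol from 58278 listed genes, and comprised 24 MMP, 19 ADAMTS, 5 ADAMTSL and 4 TIMP genes. RNA was sequenced in 12 libraries of HK2, an immortalized human proximal tubular epithelial cell line, with 2 libraries in each of 6 groups. Untreated cells formed the Ctrl group, and the TN group had 3 h of tumour necrosis factor-α (TNF-α) at a concentration of 5 ng/mL. The remaining 4 groups had the same TNF-α and, for 24 h, a short-chain fatty acid (SCFA). Propionate at 15 mM came before TNF-α in PRTN and after it in TNPR, and butyrate at 3 mM came before it in BUTN and after it in TNBU, so the SCFA doses differed. No SCFA group without TNF-α, and no TNF-α group with the added 24 h but no SCFA, was analysed here. In each comparison of an SCFA group with TN, the fatty acid and the added culture time therefore cannot be told apart. Harvest also came later after TNF-α in TNPR and TNBU than in PRTN and BUTN, so order and this time cannot be told apart.

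MMP are zinc-dependent endopeptidases that are made as inactive precursors and, once activated, cleave collagens, proteoglycans and other proteins of the extracellular matrix. ADAMTS enzymes are secreted relatives that act on proteoglycans, procollagens and von Willebrand factor, whereas ADAMTSL proteins share their architecture but lack a catalytic domain. TIMP bind the active site of the enzymes, and TIMP2 with MMP14 also takes part in the activation of the MMP2 precursor. In the kidney, injured tubular epithelium is a known source of MMP7.

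Levels are given as CPM, the count relative to the library total after TMM scaling, which adjusts for library composition. Levels of different members were compared only as CPM per kb of exons, while sums over marker genes add plain CPM. A member was called higher or lower when its fold change exceeded 1.5 and its limma-voom p-value, adjusted over all 24342 tested genes, was below 0.05. Of the 52 members, 44 had enough counts to be tested. The other 8 were MMP8, MMP21, MMP26, MMP27, ADAMTS19, ADAMTS20, TIMP3 and TIMP4, with at most 4 counts in any library, and ADAMTS20 was at 0 in all 12. A count of 0 allows a level of up to 0.0867 to 0.112 CPM, that of 3 counts, depending on the library.

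The libraries held 27269986 to 33851130 expected counts. The 2 libraries of TNPR and of TNBU lay further apart than those of the other groups. Over the tested members replicates differed by a median of 0.359 (absolute log2) for TNPR and 0.272 for TNBU, and by 0.0974 to 0.147 in the other groups. The 6 epithelial markers summed to 1430 to 1469 CPM in TN and 1878 to 2467 CPM in the SCFA groups. Of them, KRT18, KRT19 and CDH1 were higher than TN in all 4 SCFA groups and KRT8 in all but TNPR, while EPCAM and CDH2 were lower in all 4. The 8 proximal tubule markers summed to 576 to 627 CPM in TN, mostly PAX8 and GGT1, and to 217 to 250 CPM in the SCFA groups. PAX8 and GGT1 were lower in all 4 SCFA groups, whereas LRP2 (0 in all Ctrl and TN libraries), CUBN, AQP1 and ANPEP were higher in all 4, and the median log2 fold change of the 8 markers was 0.79 to 1.26. The 6 macrophage markers summed to 27.7 to 53.3 CPM, mostly CD68, the 5 neutrophil markers to at most 0.192 CPM, and the 5 endothelial markers to at most 0.287 CPM in Ctrl and TN and 2.29 to 3.87 CPM in the SCFA groups. The part of these genes in the results was not tested.

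A cluster of 9 members lies on the minus strand of chromosome 11 (chr11:102520508-102955732, GRCh38, 435 kb), in the order MMP7, MMP20, MMP27, MMP8, MMP10, MMP1, MMP3, MMP12 and MMP13. Of the neighbours in it, MMP7 and MMP20, and MMP10 and MMP1, moved in opposite directions in all 4 SCFA groups. The 250 bases before the start of MMP7, which was lower than TN in all 4 SCFA groups, and of MMP20 and MMP10, which were higher in all 4, are therefore shown from RefSeq (GRCh38.p14, minus strand, 5′ to 3′, MMP7 chr11:102530748-102530997, MMP20 chr11:102625333-102625582 and MMP10 chr11:102780629-102780878). Capitals mark the AP-1 heptamer TGAGTCA, which was searched on both strands (TGACTCA being its reverse complement).
MMP7: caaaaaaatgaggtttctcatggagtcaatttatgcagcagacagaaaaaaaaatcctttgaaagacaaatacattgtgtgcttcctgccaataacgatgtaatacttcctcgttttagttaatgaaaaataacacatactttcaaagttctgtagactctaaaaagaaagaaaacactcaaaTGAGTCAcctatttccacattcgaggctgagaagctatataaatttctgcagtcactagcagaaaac
MMP20: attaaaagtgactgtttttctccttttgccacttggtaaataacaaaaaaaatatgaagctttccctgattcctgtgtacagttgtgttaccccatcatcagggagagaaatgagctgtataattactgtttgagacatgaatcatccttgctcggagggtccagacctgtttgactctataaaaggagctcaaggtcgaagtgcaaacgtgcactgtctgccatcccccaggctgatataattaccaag
MMP10: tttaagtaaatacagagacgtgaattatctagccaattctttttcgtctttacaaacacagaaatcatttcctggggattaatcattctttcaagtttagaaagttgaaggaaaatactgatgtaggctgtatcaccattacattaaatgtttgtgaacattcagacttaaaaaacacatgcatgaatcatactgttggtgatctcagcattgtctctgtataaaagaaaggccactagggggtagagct
The heptamer began 67 bases before the start of MMP7, and these letters were not in the windows of MMP20 and MMP10. Of the 32 members with an entry in the promoter table, MMP7 alone held it within 300 bases (250 before and 50 after the start), as did 4.95% of all 35116 promoters. The other 20 members had no entry and were not searched, and the window of MMP1 is not shown. Whether the heptamer is particular to MMP7 in this family was therefore not tested. The kappa B motif was present in ADAMTS3 and ADAMTSL2, against 11.3% of all promoters. These matches describe the letters and are not sites of binding.

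The comparison of TN with Ctrl asked what 3 h of TNF-α changed in the family. In Ctrl, MMP7 (matrilysin, ENSG00000137673.8, chr11:102520508-102530750) had the highest level of all members per kb of exons, 258 ± 6.86 CPM per kb (SD, n = 2). TIMP1 (86.7 ± 2.57), TIMP2 (65.4 ± 1.48), MMP14 (49.4 ± 0.264) and MMP15 (32.9 ± 0.563) followed, and the libraries of neighbours in this order did not overlap. MMP24 and MMP1, next in the order, overlapped.

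Of the 44 members, 1 was called higher and 0 lower in TN than in Ctrl, where 0.764% of all tested genes were called higher and 0.534% lower. At an unadjusted p below 0.05, 5 members were higher and 6 lower by limma-voom, and edgeR and DESeq2 also called 1 higher and 0 lower. The member called higher was ADAMTS9, a secreted enzyme that degrades proteoglycans (ENSG00000163638.13, chr3:64515654-64688000). ADAMTS9 was at 129 and 141 CPM in Ctrl and 207 and 207 CPM in TN (log2 0.62, SE 0.12, adjusted p = 0.0178). This call ended when any of the 4 Ctrl and TN libraries was left out (adjusted p = 0.0798 to 0.183) and when scaling used library size alone (log2 0.56).
MMP7 was at 611 and 588 CPM in Ctrl and 885 and 939 CPM in TN. The groups did not overlap, but the difference was not called with the spread taken from all groups (log2 0.60, SE 0.28, adjusted p = 0.306). With Ctrl and TN fitted alone, MMP7 was called (adjusted p = 0.0473) and ADAMTS9 was not (adjusted p = 0.0509). MMP13 (collagenase-3) was at 6.22 and 5.02 CPM in Ctrl and 8.19 and 8.08 CPM in TN (log2 0.54, SE 0.12, adjusted p = 0.0319), below the 1.5-fold limit. The median log2 fold change was 0.01 over the tested members and -0.01 over all genes.

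The comparisons of the SCFA groups with TN asked how propionate or butyrate, before or after TNF-α, went with the levels of the family. Members were higher and lower in each group: 28 of 44 were called higher and 7 lower in PRTN, where 23.9% and 16.7% of all tested genes were. The calls were 24 higher and 6 lower for BUTN (all genes 23.1% and 14.8%), 26 and 8 for TNPR (all genes 24.9% and 16.9%), and 26 and 6 for TNBU (all genes 25.0% and 16.5%). The median log2 fold change of the tested members for PRTN was 1.15 (0.09 over all genes), for BUTN 1.19 (0.08), for TNPR 1.19 (0.12) and for TNBU 1.24 (0.09). Low members could enter the test through their SCFA libraries, as did MMP2, MMP12, MMP28, ADAMTS2, ADAMTS14, ADAMTSL1 and ADAMTSL2. The counts and medians above include these members. With the filter applied to Ctrl and TN alone 38 members were tested, MMP8 among them. Among the 18 members with a mean above 10 CPM, 9 were higher and 5 lower in BUTN, as were 15.3% and 21.0% of all genes at that level.
With a fold limit of 2, no member was called in TN against Ctrl (0.275% and 0.164% of all genes). Against TN, 23 were then higher and 6 lower in PRTN (all genes 18.4% and 9.17%), 22 and 6 for BUTN (all genes 18.0% and 7.44%), 23 and 8 for TNPR (all genes 19.4% and 9.41%), and 24 and 6 for TNBU (all genes 19.6% and 8.79%).
The 4 comparisons share the TN libraries. In all 4, 23 members were higher and 6 lower, as were 18.4% and 11.9% of all tested genes. With the filter applied to Ctrl and TN alone the 23 became 20, without ADAMTS14, ADAMTSL2 and MMP2. The 6 lower members were MMP1, MMP7, MMP14, ADAMTS1, ADAMTS5 and ADAMTS9, and they were lower in all 4 groups in each alternative analysis that was run at the 1.5-fold limit. A further 8 members were called in some of the 4 groups, 7 in none, and no member in both directions.

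**Figure D1:**
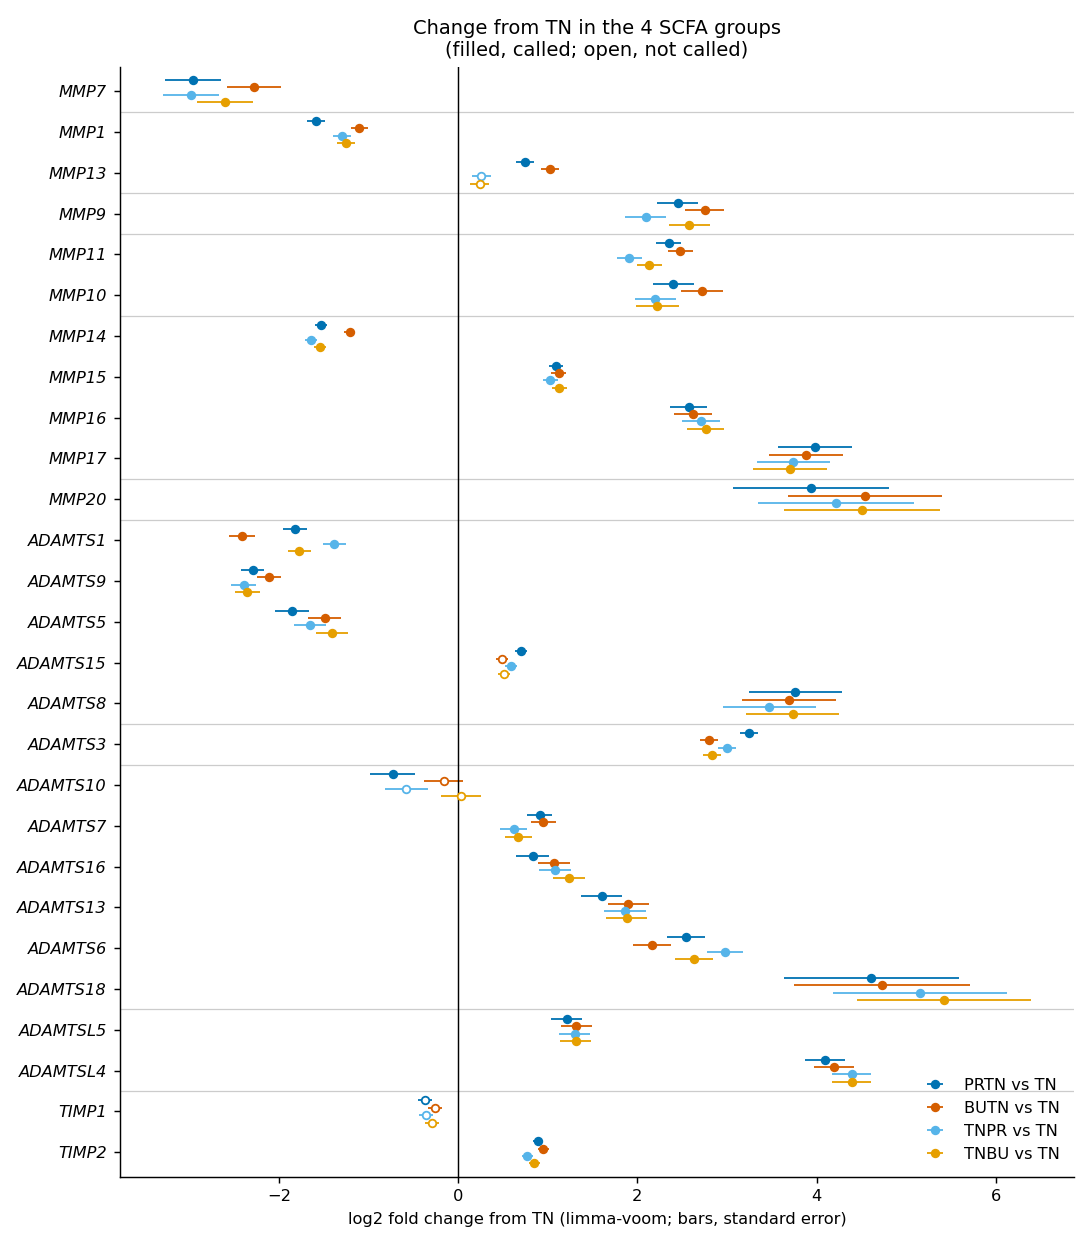
The horizontal axis gives the log2 fold change from TN with its standard error (limma-voom, 2 libraries per group) for 27 members, with lines between role groups; filled symbols were called and open symbols were not. MMP7, MMP1, MMP14, ADAMTS1, ADAMTS9 and ADAMTS5 lie left of 0 with filled symbols in all 4 SCFA groups; MMP2 and ADAMTS14, at 0 in TN, are not plotted.

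Of the matrilysins, MMP7, a small secreted MMP with many substrates, was lower in all 4 groups. It was at 885 and 939 CPM in TN and at 116 and 118 CPM in PRTN, 188 and 187 CPM in BUTN, 174 and 76.6 CPM in TNPR and 223 and 101 CPM in TNBU. All 8 SCFA libraries lay below the 4 Ctrl and TN libraries, while the replicates of TNPR and TNBU differed more than 2-fold. MMP7 was 7.80-fold lower in PRTN (log2 -2.96, SE 0.31, adjusted p = 4.10e-06) and 4.86-fold lower in BUTN (log2 -2.28, SE 0.30, adjusted p = 3.53e-05). It was 7.86-fold lower in TNPR (log2 -2.98, SE 0.31, adjusted p = 3.94e-06) and 6.08-fold lower in TNBU (log2 -2.60, SE 0.31, adjusted p = 1.23e-05). MMP12 (macrophage elastase) was at 0 in TN and at most 0.266 CPM in any library. It was called higher in PRTN, TNPR and TNBU, and the calls in PRTN and TNBU ended in 1 and 3 of 19 alternatives.

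The collagenases, which cleave fibrillar collagen, were divided. MMP1 (interstitial collagenase) was at 45.8 and 41.9 CPM in Ctrl, 48.1 and 49.0 CPM in TN and at 16.1 and 16.1 CPM in PRTN, 22.8 and 22.5 CPM in BUTN, 22.0 and 17.5 CPM in TNPR and 21.9 and 19.0 CPM in TNBU. No SCFA library overlapped TN, and MMP1 was 2.14-fold to 3.01-fold lower (adjusted p at most 1.16e-06). MMP13 was at 8.19 and 8.08 CPM in TN and at 13.6 and 13.9 CPM in PRTN, 16.6 and 16.5 CPM in BUTN, 9.92 and 9.53 CPM in TNPR and 9.53 and 9.66 CPM in TNBU. It was thus called higher than TN in the groups with the SCFA first, PRTN (log2 0.75, SE 0.10, adjusted p = 3.43e-05) and BUTN (log2 1.02, SE 0.10, adjusted p = 2.35e-06). With the SCFA after TNF-α it was not called, in TNPR (log2 0.26, SE 0.11, adjusted p = 0.0542) or in TNBU (log2 0.24, SE 0.11, adjusted p = 0.0787).

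The gelatinases, which act on denatured collagen and on collagen IV of basement membranes, were low in TN and higher in all 4 SCFA groups. MMP9 (gelatinase B) was at 0.402 and 0.706 CPM in Ctrl, 1.01 and 0.798 CPM in TN and at 5.09 and 4.89 CPM in PRTN, 6.15 and 6.09 CPM in BUTN, 3.99 and 3.75 CPM in TNPR and 5.60 and 5.31 CPM in TNBU, a rise of 4.25-fold to 6.71-fold. MMP2 (gelatinase A) had 0 counts in both TN libraries and 30 to 54 counts in the SCFA libraries. It was at 0.0343 and 0.0359 CPM in Ctrl and at 1.01 and 1.06 CPM in PRTN, 1.13 and 1.24 CPM in BUTN, 0.889 and 1.06 CPM in TNPR and 1.09 and 1.79 CPM in TNBU. With TN set to 3 counts per library, MMP2 was at least 9.47-fold higher in PRTN, 10.8-fold for BUTN, 8.86-fold for TNPR and 13.1-fold for TNBU. The 6 fibroblast markers summed to 12.1 to 13.7 CPM in TN and 37.4 to 67.7 CPM in the SCFA libraries, mostly LUM. Of the other 5, COL1A2, a defining fibroblast gene, and PDGFRA were higher in all 4 groups at means of at most 0.421 and 0.741 CPM, PDGFRB was higher in BUTN and TNBU, DCN was lower in all 4 (log2 -0.97 to -0.81) and THY1 lower in all but TNBU. Their part in the MMP2 level was not tested.

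Of the stromelysins, which degrade proteoglycans and can activate other MMP precursors, MMP10 and MMP11 were higher in all 4 groups. MMP11 (stromelysin-3) was at 4.81 and 4.19 CPM in Ctrl, 3.05 and 3.41 CPM in TN and at 17.2 and 15.9 CPM in PRTN, 18.0 and 18.1 CPM in BUTN, 13.1 and 11.3 CPM in TNPR and 14.3 and 14.1 CPM in TNBU, a rise of 3.76-fold to 5.57-fold without overlap. MMP10 (stromelysin-2) was at 1.12 and 0.681 CPM in Ctrl, 1.21 and 0.846 CPM in TN and at 5.61 and 5.25 CPM in PRTN, 6.66 and 6.85 CPM in BUTN, 4.53 and 4.89 CPM in TNPR and 4.90 and 4.67 CPM in TNBU. It was 4.59-fold to 6.58-fold higher. MMP3 (stromelysin-1) stayed below 1 CPM in every library. It was called lower in TNPR, with 0.415 and 0.162 CPM against 0.686 and 0.734 CPM, and this call ended without TNPR replicate 2 (adjusted p = 0.108) and in DESeq2 (adjusted p = 0.143).

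The membrane-type MMP act at the cell surface. MMP14 (MT1-MMP, ENSG00000157227.12, chr14:22836560-22849041) was at 229 and 227 CPM in Ctrl, 218 and 245 CPM in TN and at 78.1 and 82.2 CPM in PRTN, 103 and 96.6 CPM in BUTN, 74.0 and 73.8 CPM in TNPR and 80.1 and 78.4 CPM in TNBU. Every SCFA library was below every Ctrl and TN library, with decreases of 2.32-fold to 3.13-fold (adjusted p at most 1.77e-08). MMP15 (MT2-MMP, ENSG00000102996.4, chr16:58025754-58046901) was at 137 and 141 CPM in Ctrl, 113 and 134 CPM in TN and at 261 and 264 CPM in PRTN, 274 and 263 CPM in BUTN, 258 and 246 CPM in TNPR and 288 and 254 CPM in TNBU, 2.05-fold to 2.19-fold higher (adjusted p at most 2.82e-07). Per kb of exons MMP14 stood above MMP15 in TN (50.1 ± 4.14 and 29.2 ± 3.49 CPM per kb). In BUTN the order was the reverse, with 21.6 ± 0.958 for MMP14 and 63.5 ± 1.78 for MMP15, as it was in the other 3 SCFA groups.
MMP16 (MT3-MMP) was at 1.48 and 1.18 CPM in Ctrl, 1.60 and 1.15 CPM in TN and at 8.59 and 7.73 CPM in PRTN, 8.01 and 8.87 CPM in BUTN, 8.52 and 9.43 CPM in TNPR and 9.46 and 9.13 CPM in TNBU. MMP17 (MT4-MMP) was at 0.240 and 0.430 CPM in Ctrl, 0.484 and 0.215 CPM in TN and at 5.30 and 5.41 CPM in PRTN, 4.82 and 5.14 CPM in BUTN, 5.18 and 3.93 CPM in TNPR and 4.87 and 3.98 CPM in TNBU. Both were higher in all 4 groups, with no SCFA library overlapping TN. MMP24 (MT5-MMP), at 58.7 and 60.8 CPM in TN, was at 39.2 and 41.9 CPM in PRTN (log2 -0.56, SE 0.10, adjusted p = 0.000327) and 35.3 and 45.9 CPM in TNPR (log2 -0.57, SE 0.10, adjusted p = 0.000279), under the 1.5-fold limit. In the butyrate groups it was at 57.4 and 56.5 CPM in BUTN and 51.1 and 54.1 CPM in TNBU. MMP25 reached at most 1.03 CPM and was not called.

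**Figure D2:**
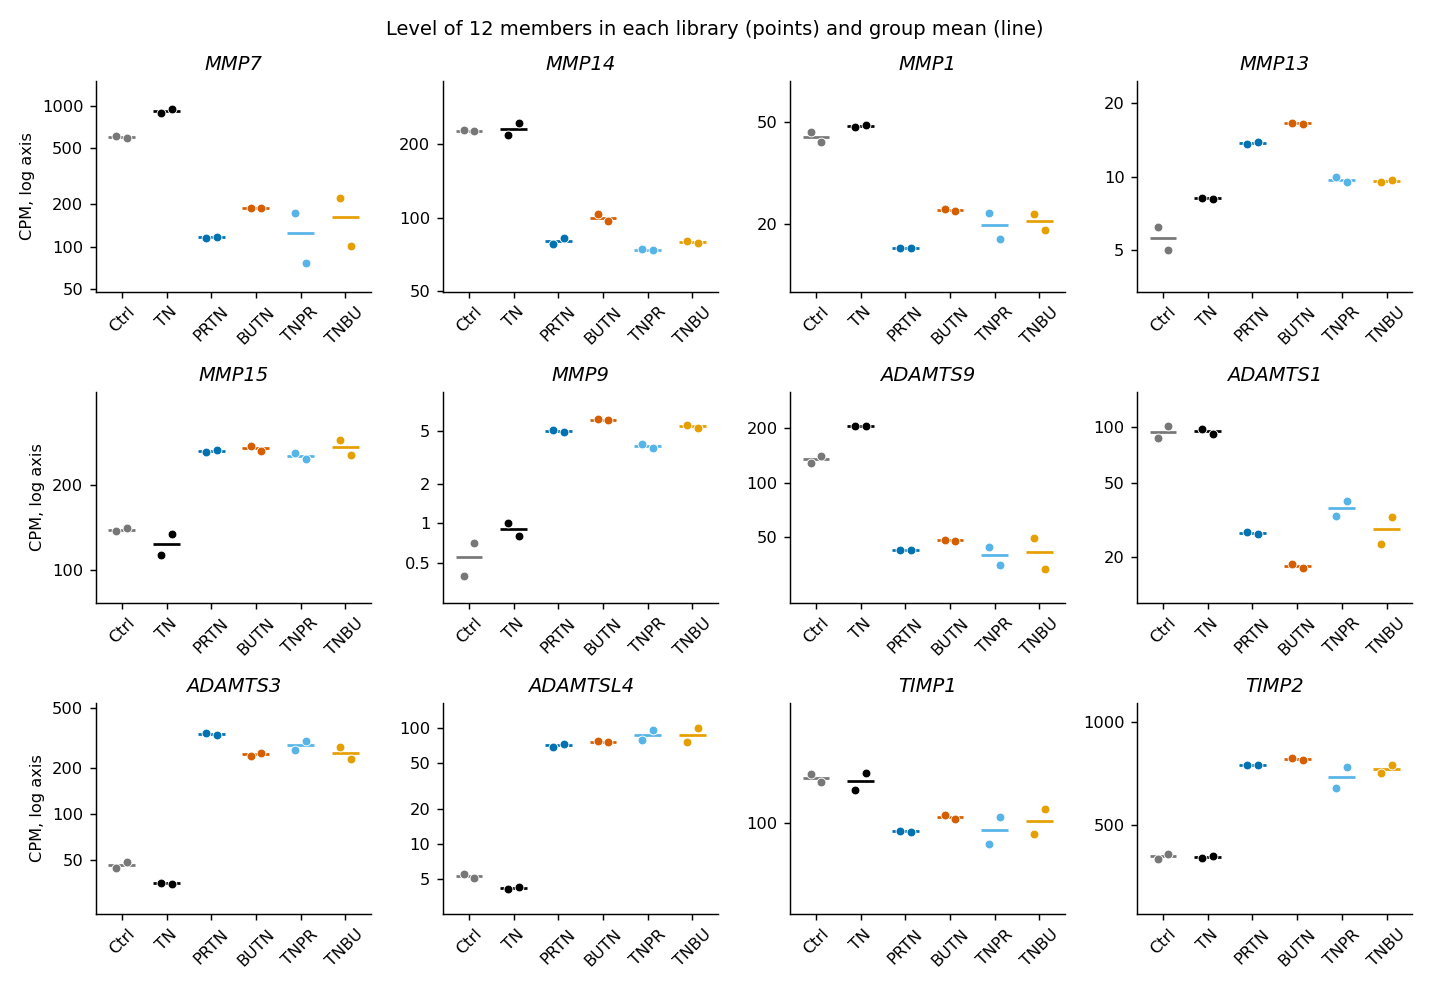
Each panel plots CPM on a log axis for 1 of 12 members, with a point per library and a line at the mean of each group. MMP7, MMP14, MMP1, ADAMTS9 and ADAMTS1 lie lower and MMP15, MMP9, ADAMTS3, ADAMTSL4 and TIMP2 higher in the 8 SCFA libraries than in the 4 Ctrl and TN libraries; MMP13 is highest in BUTN, and the points of MMP7 lie far apart in TNPR and TNBU.

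Among the other MMP, MMP20 (enamelysin, known from tooth enamel) was at 0.192 and 0.0437 CPM in Ctrl, 0.178 and 0.179 CPM in TN (4.77 and 5 counts) and at 3.07 and 2.92 CPM in PRTN, 4.85 and 4.30 CPM in BUTN, 2.71 and 5.00 CPM in TNPR and 3.01 and 6.44 CPM in TNBU. It was 15.3-fold to 23.2-fold higher, with a wide standard error (0.86 to 0.87 on the log2 scale) and replicates far apart in TNPR and TNBU. MMP19 was called higher in all 4 groups at no more than 1.07 CPM. MMP28, at no more than 0.232 CPM, was called higher in PRTN and TNBU, and these calls ended in 6 and 4 of 18 alternatives. MMP23B was not called, and MMP23A, at no more than 0.525 CPM, was called lower in TNPR, a call that ended in 3 of 20 alternatives. MMP23B and the pseudogene MMP23A are near-identical copies, so the division of reads between them is uncertain.

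Within the chromosome 11 cluster, MMP7 was lower and MMP20, separated from it by 46.1 kb, higher in all 4 SCFA groups. MMP10 was higher and MMP1, 8.77 kb away, lower in all 4. On chromosome 21 ADAMTS1 and ADAMTS5, 72.5 kb apart, were both lower in all 4. On chromosome 9 ADAMTS13 and ADAMTSL2, 72.8 kb apart, were both higher in all 4.

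**Figure D3:**
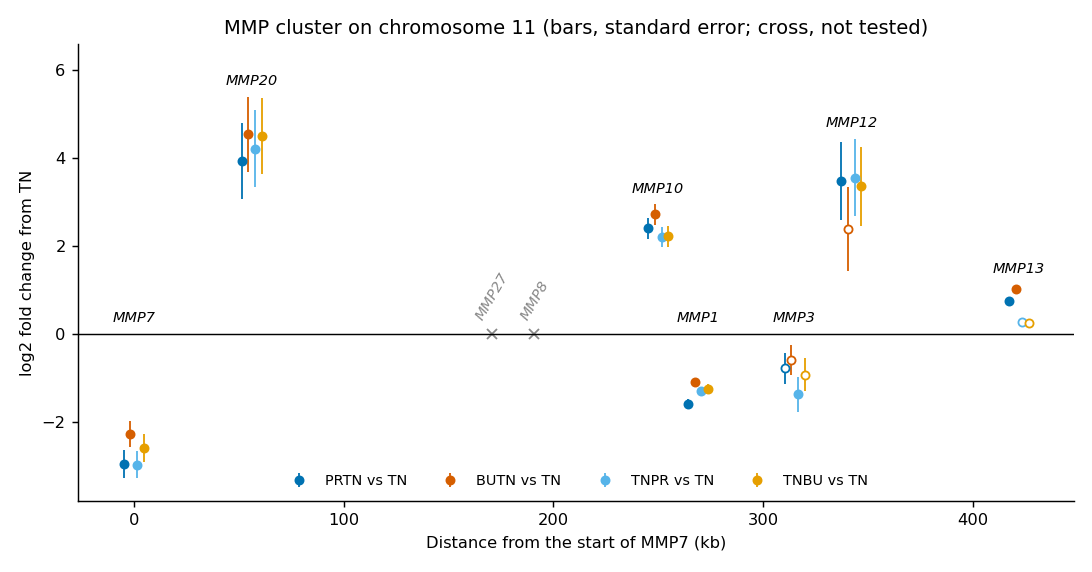
The vertical axis gives the log2 fold change from TN with its standard error and the horizontal axis the distance from the start of MMP7 in kb; filled symbols were called, open symbols were not, and crosses mark MMP27 and MMP8, which were not tested. MMP7 and MMP1 lie below 0 and MMP20 and MMP10 above 0 in all 4 SCFA groups.

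The ADAMTS that degrade proteoglycans such as aggrecan and versican were divided too. ADAMTS9 was at 207 and 207 CPM in TN and at 42.3 and 42.3 CPM in PRTN, 48.0 and 47.9 CPM in BUTN, 44.3 and 35.0 CPM in TNPR and 49.6 and 33.3 CPM in TNBU. It was 4.31-fold to 5.25-fold lower (adjusted p at most 6.96e-08), and all 8 SCFA libraries lay below Ctrl as well. ADAMTS1 (ENSG00000154734.14, chr21:26835755-26845409) was at 87.9 and 101 CPM in Ctrl, 97.6 and 92.0 CPM in TN and at 27.1 and 26.4 CPM in PRTN, 18.4 and 17.3 CPM in BUTN, 33.2 and 40.1 CPM in TNPR and 23.3 and 32.9 CPM in TNBU. No SCFA library of ADAMTS1 overlapped TN (adjusted p at most 1.20e-06). ADAMTS5 (aggrecanase-2) was at 7.42 and 8.39 CPM in Ctrl, 6.78 and 7.93 CPM in TN and at 2.17 and 1.89 CPM in PRTN, 2.50 and 2.69 CPM in BUTN, 1.93 and 2.85 CPM in TNPR and 2.84 and 2.69 CPM in TNBU.
ADAMTS8 moved the other way. It was at 0.172 and 0.108 CPM in Ctrl, 0.149 and 0.0718 CPM in TN and at 1.77 and 1.52 CPM in PRTN, 1.81 and 1.36 CPM in BUTN, 1.16 and 1.57 CPM in TNPR and 1.68 and 1.53 CPM in TNBU. ADAMTS15 was at 69.4 and 76.5 CPM in Ctrl, 70.8 and 78.3 CPM in TN and at 120 and 123 CPM in PRTN, 102 and 107 CPM in BUTN, 111 and 113 CPM in TNPR and 111 and 102 CPM in TNBU. It was called higher in PRTN (log2 0.70, SE 0.07, adjusted p = 3.33e-06) and TNPR (log2 0.59, SE 0.07, adjusted p = 1.64e-05), and was under the 1.5-fold limit in BUTN (log2 0.49, SE 0.07, adjusted p = 9.31e-05) and TNBU (log2 0.51, SE 0.07, adjusted p = 5.71e-05). The TNPR value lay at that limit, and 9 of 21 alternatives placed it below, with log2 0.49 without TN replicate 1. ADAMTS4 (aggrecanase-1) was called higher in all 4 groups at no more than 0.695 CPM, and its TNBU call ended in 10 of 21 alternatives.

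The procollagen N-proteinases remove the amino-terminal propeptide of fibrillar procollagens. ADAMTS3 (ENSG00000156140.9, chr4:72280969-72569221) was at 44.6 and 49.0 CPM in Ctrl, 35.7 and 35.1 CPM in TN and at 340 and 330 CPM in PRTN, 242 and 253 CPM in BUTN, 265 and 304 CPM in TNPR and 275 and 231 CPM in TNBU. Its increases were 6.98-fold to 9.46-fold (SE 0.10 on the log2 scale, adjusted p at most 1.06e-09), far beyond the spread of the replicates. ADAMTS14 had 0 counts in all 4 Ctrl and TN libraries and 37 to 114 counts in the SCFA libraries. It was at 1.45 and 1.34 CPM in PRTN, 1.16 and 1.68 CPM in BUTN, 1.48 and 2.62 CPM in TNPR and 1.54 and 3.78 CPM in TNBU. With TN set to 3 counts per library, ADAMTS14 was at least 12.7-fold higher in PRTN, 12.9-fold for BUTN, 18.7-fold for TNPR and 24.3-fold for TNBU. ADAMTS2 was at 0 in TN and at most 0.266 CPM elsewhere. It was called higher in PRTN, TNPR and TNBU, and the calls in PRTN and TNPR ended in 2 and 5 of 19 alternatives.

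Of the other ADAMTS, 6 of 8 tested were called higher in each SCFA group, against 23.1% to 25.0% of all tested genes. ADAMTS6 was at 0.961 and 0.932 CPM in Ctrl, 0.931 and 0.790 CPM in TN and at 5.24 and 4.90 CPM in PRTN, 3.66 and 4.13 CPM in BUTN, 6.75 and 7.00 CPM in TNPR and 5.33 and 5.44 CPM in TNBU, 4.47-fold to 7.88-fold higher. ADAMTS13, the protease of von Willebrand factor, was at 3.54 and 3.05 CPM in Ctrl, 2.01 and 1.87 CPM in TN and at 5.67 and 6.21 CPM in PRTN, 7.82 and 6.79 CPM in BUTN, 8.38 and 5.95 CPM in TNPR and 6.83 and 7.57 CPM in TNBU. Neither overlapped TN in any SCFA library. ADAMTS16 was at 9.31 and 8.75 CPM in Ctrl, 8.30 and 9.48 CPM in TN and at 16.4 and 15.2 CPM in PRTN, 18.1 and 19.2 CPM in BUTN, 15.4 and 23.0 CPM in TNPR and 19.6 and 22.5 CPM in TNBU, 1.78-fold to 2.36-fold higher. ADAMTS18 was at 0.0343 and 0.0359 CPM in Ctrl, 0.149 and 0.00 CPM in TN and at 1.42 and 1.21 CPM in PRTN, 1.53 and 1.32 CPM in BUTN, 1.45 and 2.55 CPM in TNPR and 1.81 and 2.91 CPM in TNBU, with the replicates of TNPR and TNBU far apart. The sixth, ADAMTS17, reached at most 0.649 CPM, and its call ended in DESeq2 in all 4 groups (adjusted p = 0.0604 to 0.182) and in 5 of 21 alternatives in BUTN, TNPR and TNBU each. ADAMTS7 was at 16.4 and 15.9 CPM in Ctrl, 11.1 and 13.8 CPM in TN and at 23.8 and 22.8 CPM in PRTN, 24.7 and 23.4 CPM in BUTN, 22.1 and 16.4 CPM in TNPR and 21.2 and 18.4 CPM in TNBU, 1.54-fold to 1.93-fold higher. It has pseudogene copies that may share its reads, and its TNPR call ended without TN replicate 1, TNPR replicate 1 or TNBU replicate 1 (log2 0.36 to 0.57), as did its TNBU call without TN replicate 1 or TNBU replicate 1.
ADAMTS12 was at 64.3 and 67.2 CPM in TN and 47.2 to 68.3 CPM in the SCFA libraries, and was not called. ADAMTS10 was called lower in PRTN (log2 -0.73, SE 0.25, adjusted p = 0.0221), and was at 2.33 and 2.55 CPM in Ctrl, 2.46 and 2.73 CPM in TN and at 1.79 and 1.34 CPM in PRTN, 2.10 and 2.54 CPM in BUTN, 2.13 and 1.38 CPM in TNPR and 2.38 and 2.92 CPM in TNBU. Without PRTN replicate 2 this call ended (adjusted p = 0.157), as in 3 other alternatives.

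ADAMTSL proteins bind microfibrils and other matrix components. ADAMTSL4 (ENSG00000143382.14, chr1:150549369-150560937) was at 5.48 and 5.05 CPM in Ctrl, 4.08 and 4.24 CPM in TN and at 69.3 and 73.3 CPM in PRTN, 77.6 and 75.3 CPM in BUTN, 79.4 and 96.4 CPM in TNPR and 76.2 and 100 CPM in TNBU. It was 17.1-fold to 21.0-fold higher (adjusted p at most 1.43e-08), the widest change in this group. ADAMTSL5 was at 10.6 and 9.76 CPM in Ctrl, 8.91 and 9.85 CPM in TN and at 21.0 and 22.6 CPM in PRTN, 25.0 and 22.1 CPM in BUTN, 23.5 and 22.9 CPM in TNPR and 19.1 and 28.4 CPM in TNBU. ADAMTSL2 was called higher in all 4 groups at no more than 0.318 CPM, and these calls ended in DESeq2 (adjusted p = 0.0502 to 0.104) and without TN replicate 1 (adjusted p = 0.0596 to 0.151). ADAMTSL1 and ADAMTSL3, with at most 5 counts, were not called.

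Of the inhibitors, TIMP2 and TIMP1 were abundant, while TIMP3 and TIMP4 had at most 4 and 3 counts in any library. TIMP2 (ENSG00000035862.12, chr17:78852977-78925387) was at 400 and 413 CPM in Ctrl, 402 and 408 CPM in TN and at 748 and 751 CPM in PRTN, 784 and 776 CPM in BUTN, 643 and 741 CPM in TNPR and 710 and 749 CPM in TNBU. It was 1.70-fold to 1.93-fold higher (adjusted p at most 4.78e-07), with no overlap. TIMP1 (ENSG00000102265.11, chrX:47582408-47586789) was at 128 and 123 CPM in Ctrl, 118 and 129 CPM in TN and at 96.1 and 95.4 CPM in PRTN, 104 and 102 CPM in BUTN, 89.6 and 103 CPM in TNPR and 94.6 and 107 CPM in TNBU. Its log2 fold changes were -0.37, -0.26, -0.36 and -0.29 (SE 0.08 each, adjusted p at most 0.0155), under the 1.5-fold limit, though no SCFA library overlapped TN. Over the alternatives these decreases ranged from log2 -0.46 to -0.10. In BUTN, TNPR and TNBU not every alternative kept an adjusted p below 0.05.

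Summed per kb of exons, the MMP genes were at 378 ± 8.03 CPM per kb in Ctrl and 510 ± 24.7 in TN (SD, n = 2). The MMP sum was 163 ± 1.85 in PRTN and 209 ± 3.58 in BUTN. With the SCFA after TNF-α it was 161 ± 30.8 in TNPR and 188 ± 41.8 in TNBU. MMP7 made up 77.1 ± 0.511% of it in TN and 38.7 ± 0.390% in BUTN. Without MMP7 the sum was 117 ± 8.28 in TN and 113 ± 1.30 (PRTN), 128 ± 3.01 (BUTN), 107 ± 1.12 (TNPR) and 118 ± 4.91 (TNBU) in the SCFA groups.
The leading ADAMTS gene changed. ADAMTS9 held 31.5 ± 0.506% of the ADAMTS sum in TN and 6.05 ± 0.132% in BUTN, while ADAMTS3 held 8.22 ± 0.221% and 47.6 ± 0.548%. The ratio of the TIMP sum to the MMP sum was 0.402 ± 0.00564 in Ctrl and 0.296 ± 0.00214 in TN. With the SCFA first it was 1.15 ± 0.0129 (PRTN) and 0.944 ± 0.00647 (BUTN). With the SCFA second it was 1.13 ± 0.326 in TNPR and 1.03 ± 0.286 in TNBU, where the replicates differed most. These sums describe transcripts, without a test, and not the amount or activity of proteins.

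**Figure D4:**
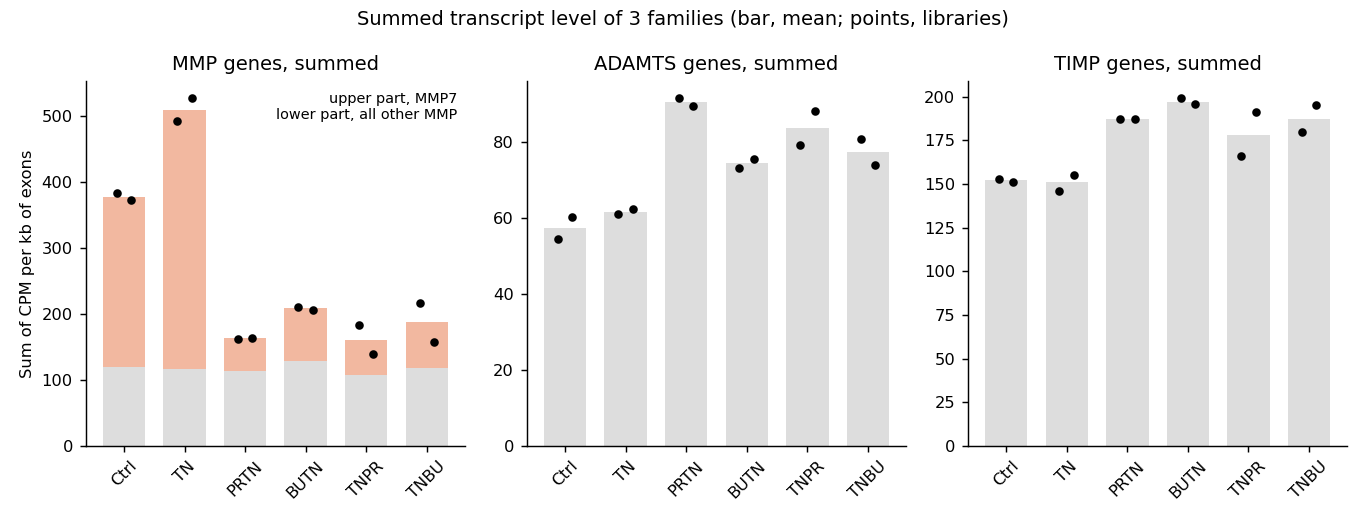
Bars give the mean and points the 2 libraries of each group for the summed CPM per kb of exons of the MMP, ADAMTS and TIMP genes; in the MMP panel the upper part of the bar is MMP7. The MMP sum is 510 in TN and 161 to 209 in the SCFA groups, where the MMP7 part is smaller, while the ADAMTS and TIMP sums are higher than in TN.

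Against Ctrl, 28 members were higher and 8 lower in PRTN (22.6% and 16.9% of all tested genes), 24 and 6 for BUTN (all genes 22.0% and 14.9%), 24 and 7 for TNPR (all genes 23.6% and 16.8%), and 26 and 6 for TNBU (all genes 23.6% and 16.5%). ADAMTS9 was below its untreated level in all 4 groups, with log2 fold changes of -1.78 to -1.49, and so was MMP7, with -2.37 to -1.68.

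The groups with the SCFA before and after TNF-α were compared directly. They differ in order and in the time from TNF-α to harvest, which cannot be told apart. Of the 44 members, 0 were called higher and 1 lower in TNBU than in BUTN (0.0945% and 0.173% of all tested genes), and 0 in either direction in TNPR than in PRTN (0.0534% and 0.107%). The member called was MMP13, at 9.53 and 9.66 CPM in TNBU and 16.6 and 16.5 CPM in BUTN (log2 -0.79, SE 0.09, adjusted p = 0.00364). This call ended without BUTN replicate 1 (adjusted p = 0.0568) or BUTN replicate 2 (adjusted p = 0.0518) and with both groups fitted alone (adjusted p = 0.103). Between TNPR and PRTN the difference of MMP13 was not called (log2 -0.50, SE 0.09, adjusted p = 0.0574). Between these groups 9 members had an unadjusted p below 0.05 by limma-voom, and edgeR and DESeq2 called 0. Between TNBU and BUTN 2 members were higher and 5 lower at an unadjusted p below 0.05, edgeR and DESeq2 also called MMP13 lower, and DESeq2 called 1 member higher, ADAMTS1.

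The propionate and butyrate groups, whose doses differed, had few differences past the threshold. No member was called in PRTN against BUTN (0.0411% and 0.127% of all tested genes) or in TNPR against TNBU (0.00% and 0.00822%), by limma-voom, edgeR or DESeq2, and 11 and 7 members had an unadjusted p below 0.05 by limma-voom. ADAMTS3 was higher in PRTN than in BUTN (log2 0.44, SE 0.08, adjusted p = 0.0416) and MMP24 lower (log2 -0.49, SE 0.10, adjusted p = 0.0468), both under the 1.5-fold limit. Over the alternatives their adjusted p was 0.000735 to 0.380 and 0.00167 to 0.398. MMP7 was at 116 and 118 CPM in PRTN and 188 and 187 CPM in BUTN (log2 -0.68, SE 0.33, adjusted p = 0.387), without overlap. Fitted by limma-voom on these 2 groups alone, MMP7 was called lower in PRTN (log2 -0.67, adjusted p = 9.14e-05). Its call therefore depends on whether the spread of the other groups is included. The 95% confidence intervals of the log2 differences between PRTN and BUTN reached up to 0.93 on either side for the members given in every library, so that smaller differences were not detectable for all of them.

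Genes around the family were taken from 4 lists, to be read against all tested genes, of which 23.1% to 25.0% were called higher and 14.8% to 16.9% lower than TN in the 4 SCFA groups. Of 12 activators and regulators 10 were tested, and 4 were higher and 1 lower than TN in PRTN, BUTN and TNBU, and 6 and 1 in TNPR. FURIN, a convertase that activates membrane-type MMP, was the lower gene, at 94.5 ± 9.71 CPM in TN and 49.2 ± 0.251 in PRTN (SD, n = 2). BSG, an inducer of MMP known as EMMPRIN, was higher, at 493 ± 47.3 CPM in TN and 984 ± 1.23 in PRTN. Of the plasmin system, PLAU and PLAT were higher in TN than in Ctrl. PLAU (urokinase) was lower than TN in all 4 SCFA groups, with 337 ± 21.4 CPM in TN and 80.7 ± 3.51 in PRTN, and PLAT (tissue plasminogen activator) was higher in all 4, with 12.7 ± 1.58 and, in BUTN, 114 ± 1.43.
Of 17 other metzincin proteinases 14 were tested, and 6 were higher and 4 lower than TN in PRTN, TNPR and TNBU, and 6 and 3 in BUTN. BMP1, the procollagen C-proteinase, was lower in all 4 groups, with 253 ± 13.7 CPM in TN and 120 ± 0.643 in PRTN, whereas the N-proteinase ADAMTS3 was higher. All 17 substrates were tested. The calls were 12 higher and 3 lower for PRTN (median log2 1.21), 11 and 2 for BUTN (1.34), 10 and 3 for TNPR (1.28), and 11 and 3 for TNBU (1.43), where the median over all genes was 0.08 to 0.12. Of those higher in PRTN, BCAN, NCAN, HAPLN1, COMP, ELN, VWF and LTBP1 had a mean below 1 CPM in TN. VCAN (versican), a substrate of ADAMTS1, ADAMTS5 and ADAMTS9, was lower in all 4 groups, with 467 ± 8.57 CPM in TN and 114 ± 4.35 in PRTN. FN1 (fibronectin) was at 14020 ± 795 CPM in TN and 8026 ± 188 in PRTN. It was called lower in PRTN, TNPR and TNBU and was under the 1.5-fold limit in BUTN (log2 -0.58, adjusted p = 0.00430 by limma-voom). BGN (biglycan) was higher in all 4, with 29.9 ± 1.81 CPM in TN and 95.8 ± 2.41 in PRTN. DCN and VWF of this list are also among the fibroblast and endothelial markers.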

How the data were processed

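Per the labels, TruSeq stranded mRNA libraries were made, and the submitters' processing notes name FastQC 0.11.5, STAR 2.6.1a, RSEM and GRCh38. The expected count per gene was made by the authors from the aligned reads with RSEM before it was deposited, and is not normalized. Of the values, 19.3% are not whole, and the strand setting of RSEM is not given in the sources used here, so reads of members and their antisense genes cannot be told apart. A general protocol text names other agents, and groups follow each library's own label. The floors cover counting error only, and the intervals come from the limma-voom fit. The study calls the replicates biological, and no source used here says whether they were separate cultures. The p-values then measure the spread between the 2 libraries of a group, pooled over all 6 groups. The wider spread of TNPR and TNBU therefore also enters comparisons that do not hold these groups.

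Genes with a geometric mean of count plus 1, less 1, of at least 1 were fitted in R 4.3.3 with limma 3.58.1 (voom, group means over all 12 libraries) after TMM scaling by edgeR 4.0.16, with Benjamini-Hochberg adjustment. edgeR's quasi-likelihood test and DESeq2 1.42.0, on rounded counts, were alternatives. Values in every library are given for members with a group mean of at least 1 CPM and a call in TN against Ctrl or an SCFA group against TN, and for TIMP1. MMP24, MMP3 and the promoters shown were chosen after their values were seen. Positions and exon lengths are from GENCODE release 44. The fit was tested on simulated data. The result of 1 gene of the plasmin system list is not reported here. The members and lists were chosen with earlier results of these data known.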

Additional observations from a re-analysis of the deposited data

Results flagged for a closer look

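In the direct comparisons of the SCFA groups, 3 differences had an adjusted p below 0.05 by limma-voom and so marked members whose change from TN differed between groups. MMP13 was lower in TNBU than in BUTN (log2 -0.79, SE 0.09, adjusted p = 0.00364), in both libraries of TNBU. ADAMTS3 was higher in PRTN than in BUTN (log2 0.44, SE 0.08, adjusted p = 0.0416), and MMP24 was lower in PRTN than in BUTN (log2 -0.49, SE 0.10, adjusted p = 0.0468), each without overlap of the libraries. Over the alternatives the adjusted p reached 0.103 for MMP13, 0.380 for ADAMTS3 and 0.398 for MMP24. The differences of ADAMTS3 and MMP24 are under the 1.5-fold limit, and the doses in these groups differed.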

How the results depend on the processing

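The counts of members called stayed within 1.5 times under edgeR, relative log expression size factors, 2 other filters on low counts and a filter on the Ctrl and TN libraries alone, which was added after seeing the data. In TN against Ctrl the count called higher was 0 with library size alone and 0 with a fold limit of 2, and 0 to 1 with 1 library left out. With only the groups compared in the fit, PRTN against BUTN had 1 higher (ADAMTS1) and 2 lower (MMP7 and MMP20), and TNBU against BUTN had 0 lower. DESeq2 gave 1 higher (ADAMTS1) in TNBU against BUTN. With 1 library left out, PRTN against BUTN had 0 to 1 higher (ADAMTS1, without TNBU replicate 2), and TNBU against BUTN had 0 to 2 higher (ADAMTS1 and ADAMTS14, without TNBU replicate 1) and 0 to 1 lower. The cause was not tested.

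The 23 members higher in all 4 SCFA groups numbered 18 without TN replicate 1, which lost ADAMTS4, ADAMTS7, ADAMTS17, ADAMTSL2 and MMP19, and 26 with library size alone. No printed change reversed. Same-numbered libraries showed no strong shared deviation over all tested genes, with a correlation of -0.0334 to 0.0670 over 15 pairs of groups. This cannot show whether they were prepared together. With the replicate block, ADAMTS9 in TN against Ctrl had a log2 fold change of 0.62 (adjusted p = 0.0179), no call given in the text changed, and MMP12 was added to the members higher in all 4 groups.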

Other observations

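Some members differed between the replicates of both TNPR and TNBU, and others of 1 of these groups. The ratio of replicate 2 to replicate 1 of MMP7 was 0.441 and 0.456 in TNPR and TNBU, and 0.963 to 1.06 in the other 4 groups. For MMP20 the ratio was 1.85 and 2.14, against 0.952 and 0.888 in PRTN and BUTN. For ADAMTS18 it was 1.75 and 1.61, against 0.853 and 0.864. ADAMTS14 had ratios of 1.77 and 2.45, against 0.925 and 1.45. In other members the ratios of TNPR and TNBU lay on opposite sides of 1, as 0.645 and 1.23 for ADAMTS10, 0.710 and 1.11 for ADAMTS13 and 1.48 and 0.947 for ADAMTS5. These are values of single libraries, and no test was made.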
